A study of Mus musculus with 4 samples.

Results

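The genes described here encode calcium-buffer and calcium-sensor proteins of neurons. They are 10 of the 19465 genes in the feature tables of a Visium data set, taken by symbol alone: Calb1, Calb2, Pvalb, Cabp7, Hpca, Hpcal1, Hpcal4, Ncald, Necab1 and Necab2. All 10 were found. Coronal brain sections of male C57BL/6J mouse offspring at postnatal day 21 were profiled on capture arrays with a probe panel for fixed, paraffin-embedded tissue. The mothers ate a folic acid (FA) diet of 2 mg/kg (MF, called median folate in the labels) or 20 mg/kg (HF, high folate) from 2 weeks before mating until the pups were taken, so the offspring differed in maternal diet through gestation and suckling. Each diet had 2 sections, named MF replicate 1 and 2 and HF replicate 1 and 2, which the methods call biological replicates. All animals were wild type, and a section is a single coronal plane of a brain.

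Calcium entering a neuron is bound within moments by proteins that carry EF-hand loops. Buffers such as calbindin (Calb1), calretinin (Calb2) and parvalbumin (Pvalb) limit the size and spread of a calcium signal and are the classic labels of interneuron classes and thalamic nuclei. Sensors of the neuronal calcium sensor family, hippocalcin (Hpca), its relatives Hpcal1 and Hpcal4 and neurocalcin delta (Ncald), expose a lipid tail on binding calcium and move to membranes. Cabp7 is a membrane-anchored relative of calmodulin, and Necab1 and Necab2 carry an EF hand next to a monooxygenase-like domain and are found in restricted sets of neurons.

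A spot, the unit of the array, covers several cells. After removal of 18 of 13470 spots with under 500 unique molecular identifiers (UMIs) or under 250 genes, the sections held 3197 to 3598 spots and 34982061 to 90096877 UMIs, with MF replicate 1 the deepest and HF replicate 1 the shallowest. Spots were grouped into 31 clusters from genes that did not include the 10 members. Of the 23 areas used, 16 were named from marker lists and 7 are called by their leading pair of genes because no marker list met the naming rule, which also weighs the 10 leading genes. The midline thalamus cluster was led by Igkc, an immunoglobulin gene, followed by Nmbr, Lhx9 and Gbx2. The sections did not cut the same extent of each area: the reticular thalamic nucleus had 51, 42 and 41 spots in MF replicate 1, MF replicate 2 and HF replicate 1 and 102 in HF replicate 2. In the whole section, the summed level of 8 oligodendrocyte markers was 22697 and 23684 counts per 1000000 UMIs (CPM) in MF and 19010 and 19933 in HF, and 20 of 21 immediate early genes had positive fold changes, none of them called at the adjusted threshold. Their part in the results below was not tested.

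The sequence in front of a gene is shown for 3 members whose highest levels lay in 3 different areas, Pvalb in the reticular thalamic nucleus, Cabp7 in CA2-3 and Necab2 in the medial habenula. Each run is the 250 bases before the transcription start in RefSeq's GRCm38.p6 annotation, which lists windows for 6 of the 10 members. The Pvalb window is chr15:78206401-78206650 on the minus strand, that of Cabp7 chr11:4747180-4747429 on the minus strand and that of Necab2 chr8:119446469-119446718 on the plus strand. Capitals mark GGGCGG (the GC box) and the TATA-like TATTTAA, searched on both strands. TATAAA was searched too and was in none of the 3.
Pvalb: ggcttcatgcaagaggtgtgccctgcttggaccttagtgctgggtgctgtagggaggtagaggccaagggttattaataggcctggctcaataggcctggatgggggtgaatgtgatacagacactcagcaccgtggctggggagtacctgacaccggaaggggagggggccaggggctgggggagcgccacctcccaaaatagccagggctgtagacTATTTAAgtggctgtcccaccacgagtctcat
Cabp7: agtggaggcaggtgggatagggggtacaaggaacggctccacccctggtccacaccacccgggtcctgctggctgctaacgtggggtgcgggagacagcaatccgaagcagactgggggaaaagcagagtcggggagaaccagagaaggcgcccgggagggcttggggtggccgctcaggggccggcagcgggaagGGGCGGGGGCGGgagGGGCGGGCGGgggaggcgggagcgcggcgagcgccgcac
Necab2: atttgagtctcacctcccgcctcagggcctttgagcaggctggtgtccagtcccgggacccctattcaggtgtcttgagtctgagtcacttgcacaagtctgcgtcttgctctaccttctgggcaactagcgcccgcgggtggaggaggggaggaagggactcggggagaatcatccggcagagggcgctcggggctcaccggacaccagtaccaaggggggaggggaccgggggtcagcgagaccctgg
The Pvalb window held the TATA-like sequence once, close to the start, and no GC box. The Cabp7 window held 4 GC boxes, overlapping or close together, and neither TATA form, and the Necab2 window held none of the 3. Over all 32851 windows of this length in the table, 32.7% held GGGCGG, 4.18% TATTTAA and 12.4% TATAAA. A match describes the letters only.

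Levels in the areas are sums over spots, so more cells of a type and more RNA per cell cannot be told apart. Because the areas come from the same spots, levels between areas are given without a test, and because each gene has its own probes, levels are not compared between genes. For 6 of the 10 members, the 4 sections of the highest area all lay above the 4 sections of the next area. This was so for 15.8% of the 14971 features tested in the whole section. The ratio of the highest to the median area, on the log2 scale, was 5.18 for Calb2, 4.30 for Pvalb and 1.54 for Calb1, against a median of 0.77 over these features. The ratio of Calb2 was at percentile 99.8, that of Pvalb at 98.95, Cabp7 97.5, Necab2 96.6 and Hpca 96.4, and that of Ncald at 59.9.

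**Figure D1:**
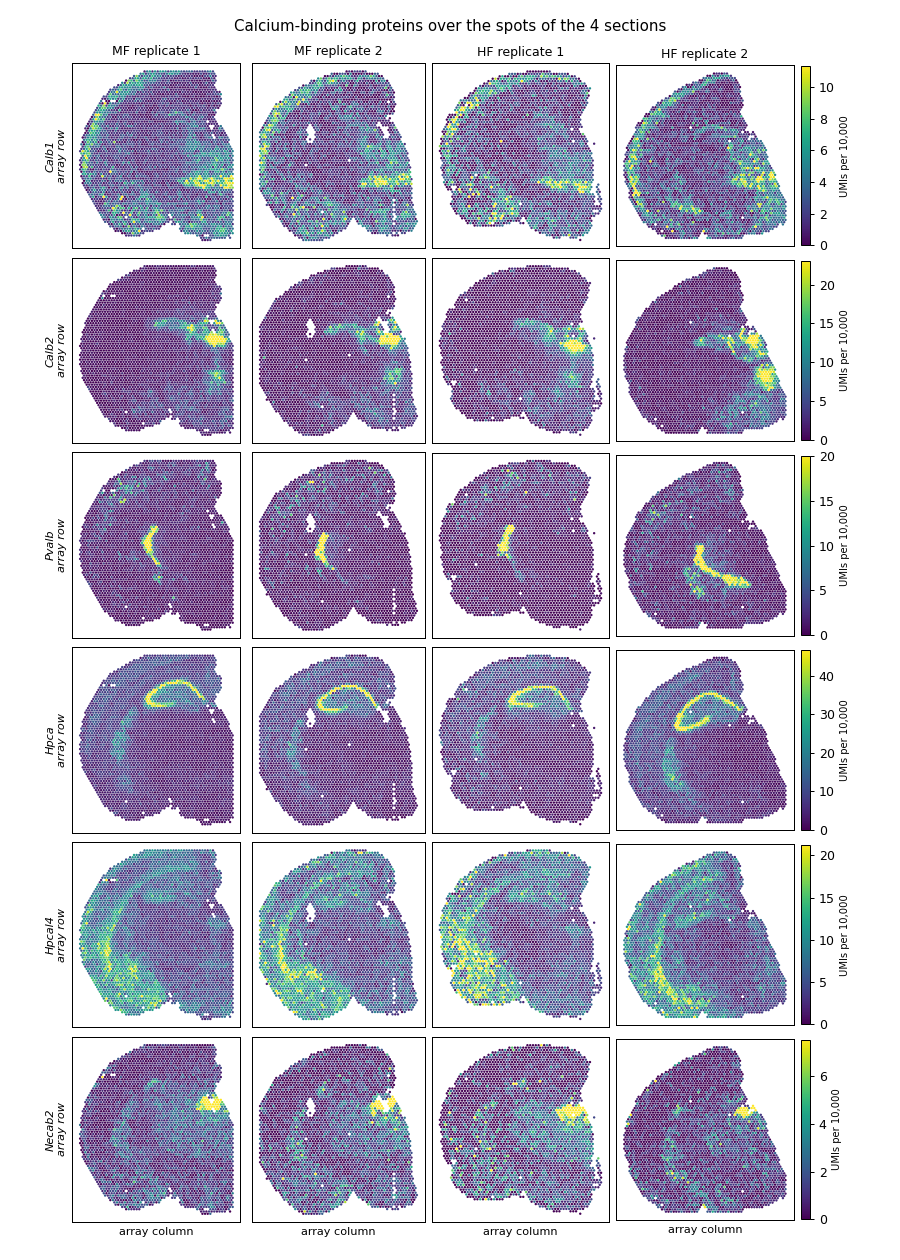
Spots of the 4 sections (columns) coloured by UMIs per 10,000 of Calb1, Calb2, Pvalb, Hpca, Hpcal4 and Necab2 (rows); axes are array columns and rows, and each colour scale ends at the gene's 99th percentile. Calb2 fills the midline thalamus, Pvalb a band in the reticular nucleus that is longer in HF replicate 2, Hpca the pyramidal layers of the hippocampus and Necab2 the medial habenula, in all 4 sections.

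Among the buffers, Calb1 had its highest area level in cortical layer 2-3. Its level in cortical layer 2-3 was 602 and 629 CPM in the MF sections and 609 and 648 CPM in the HF sections. The 4 sections lay close together and above every section of the next area, cortical layer 4, at 382 ± 34.4 CPM (SD, n = 4). After layer 4 came the relay thalamus (348 ± 35.5 CPM), which overlapped with it, and the olfactory cortex and amygdala was among the areas that followed. The lowest level was in CA2-3, at 52.8 ± 9.92 CPM, separate from the next lowest, the white matter. Within the relay thalamus, Calb1 was not even: the Cbln1-Gbx2 cluster held 685 ± 31.2 CPM and the Tnnt1-Prkcd cluster 161 ± 25.4 CPM. The mean of the Cbln1-Gbx2 cluster was above that of layer 2-3 (622 ± 20.6 CPM), though not in HF replicate 2 (639 against 648 CPM). Layer 2-3 is thus highest among the areas, in which the relay clusters are pooled, and not among the clusters.

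Calb2 had the highest ratio of its highest to its median area. In the midline thalamus it stood at 3705 and 3272 CPM in MF and 3547 and 2992 CPM in HF. The medial habenula, a small epithalamic nucleus, followed with 1093, 1043, 969 and 1049 CPM in the same order. Both areas were separate from the next in all 4 sections. The relay thalamus, hypothalamus and dentate gyrus came next with means of 495, 379 and 317 CPM, the relay thalamus and the hypothalamus overlapping with their neighbours, and CA1 and the Trbc2-Nxph3 area were lowest, at 47.4 and 45.8 CPM. Inside the relay thalamus the Cbln1-Gbx2 cluster held 810 ± 208 CPM, the Grid2ip-Synpo2 cluster 696 ± 114 CPM and the Tnnt1-Prkcd cluster 136 ± 28.3 CPM.

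Pvalb was concentrated in the reticular thalamic nucleus, the sheet of inhibitory neurons around the thalamus. Its level there was 2081 and 2419 CPM in MF and 2323 and 2211 CPM in HF. That was 7.44 times the mean of the next area, with no overlap between sections. Cortical layers 4 (304 ± 8.98 CPM) and 5 (302 ± 26.6 CPM) followed and did not differ beyond their spread. The midline thalamus, where Calb2 was highest, had the lowest Pvalb level, at 57.3 ± 13.7 CPM.

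Among the sensors, Hpca, the sensor named for the hippocampus, was highest in its pyramidal fields. In CA2-3 it was at 4563 and 5252 CPM in MF and 4890 and 5595 CPM in HF, and in CA1 at 4543, 4868, 4498 and 5472 CPM in the same order. CA2-3 was the higher area within every section, but across sections the ranges overlapped. The Gm2115-Thbs4 area, led by hippocampal neuropil and CA1 genes, followed at 1745 ± 194 CPM, then the striatum at 1324 ± 115 CPM and the dentate gyrus at 1287 ± 22.1 CPM. The midline thalamus was lowest, at 207 ± 28.5 CPM.

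The relatives of hippocalcin had other maps. Hpcal4 peaked in the Ccn2-Nxph3 area, whose leading genes include the subplate genes Ccn2 and Cplx3, at 1627 and 1695 CPM in MF and 1714 and 1683 CPM in HF, separate from the olfactory cortex and amygdala at 1175 ± 97.7 CPM. Its lowest areas were the reticular thalamic nucleus (261 ± 60.5 CPM) and the medial habenula (229 ± 20.3 CPM). Hpcal1 was highest in the olfactory cortex and amygdala in every section, at 214 and 290 CPM in MF and 331 and 208 CPM in HF. The next areas overlapped with it, and CA1, where Hpca was high, had the lowest Hpcal1 level, at 17.6 ± 6.15 CPM. Ncald was the most even: the Trbc2-Nxph3 area (604 ± 27.5 CPM), the Ccn2-Nxph3 area (585 ± 32.1 CPM) and CA2-3 (546 ± 39.2 CPM) overlapped, and the first 2 shared the highest place, each in 2 sections. Its level in CA1, 109 ± 25.2 CPM, was the lowest and separate from the next, the ependyma.

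Cabp7 followed the hippocampus too, in a graded order. CA2-3 held 444 and 441 CPM in MF and 464 and 465 CPM in HF. The Gm2115-Thbs4 area (371 ± 31.3 CPM), CA1 (233 ± 33.2 CPM) and the dentate gyrus (173 ± 24.7 CPM) followed, each separate from the next in all 4 sections. Cortical layer 2-3, at 15.3 ± 4.36 CPM, was among the lowest.

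Of the Necab genes, Necab2 marked the medial habenula, at 882 and 1046 CPM in MF and 1097 and 1001 CPM in HF, separate from the midline thalamus at 311 ± 78.9 CPM. The midline thalamus, striatum (213 ± 17.2 CPM) and relay thalamus (180 ± 31.9 CPM) overlapped, and CA1 was lowest, at 34.8 ± 17.7 CPM. Necab1 was close to the limit of detection everywhere. Its highest mean, in the midline thalamus, rested on 11, 5 and 7 UMIs in the first 3 sections, and 0 UMIs in HF replicate 2 allow up to 4.37 CPM there, which covers counting error only.

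Set out by structure, the hippocampal fields divided the members in 3 ways. Hpca was low in the dentate gyrus against both pyramidal fields, whereas Calb1 (312 ± 29.9 CPM) and Calb2 (317 ± 50.6 CPM) were high there, against 133 and 47.4 CPM in CA1 and 52.8 and 64.0 CPM in CA2-3. In neither case did the sections overlap. Ncald and Necab2 instead set CA1 apart: the dentate gyrus held 509 ± 35.1 CPM of Ncald and 151 ± 36.9 CPM of Necab2, close to CA2-3, and every CA1 section was below them. Hpcal4 was highest in CA2-3 (884 ± 27.4 CPM) and alike in CA1 (464 ± 42.7 CPM) and the dentate gyrus (459 ± 51.9 CPM). In the cortex, Calb1 stepped down from layer 2-3 through layer 4 to layer 5 (148 ± 26.5 CPM), with no overlap at either step. Pvalb ran the other way, from 152 ± 34.2 CPM in layer 2-3 to the overlapping levels of layers 4 and 5, and Hpcal4 dropped from 865 ± 34.8 CPM to 520 ± 30.8 and 513 ± 3.49 CPM. Calb2 was alike in layers 2-3, 4 and 5, with means of 64.0 to 69.8 CPM. It was higher in the L1 and pial surface area (163 ± 13.4 CPM), where every section lay above those of these layers. In the Trbc2-Nxph3 area, whose leading genes include the layer 6 gene Rprm, the Calb2 mean was lower (45.8 ± 5.69 CPM). The sections there overlapped with those of layer 4.

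**Figure D2:**
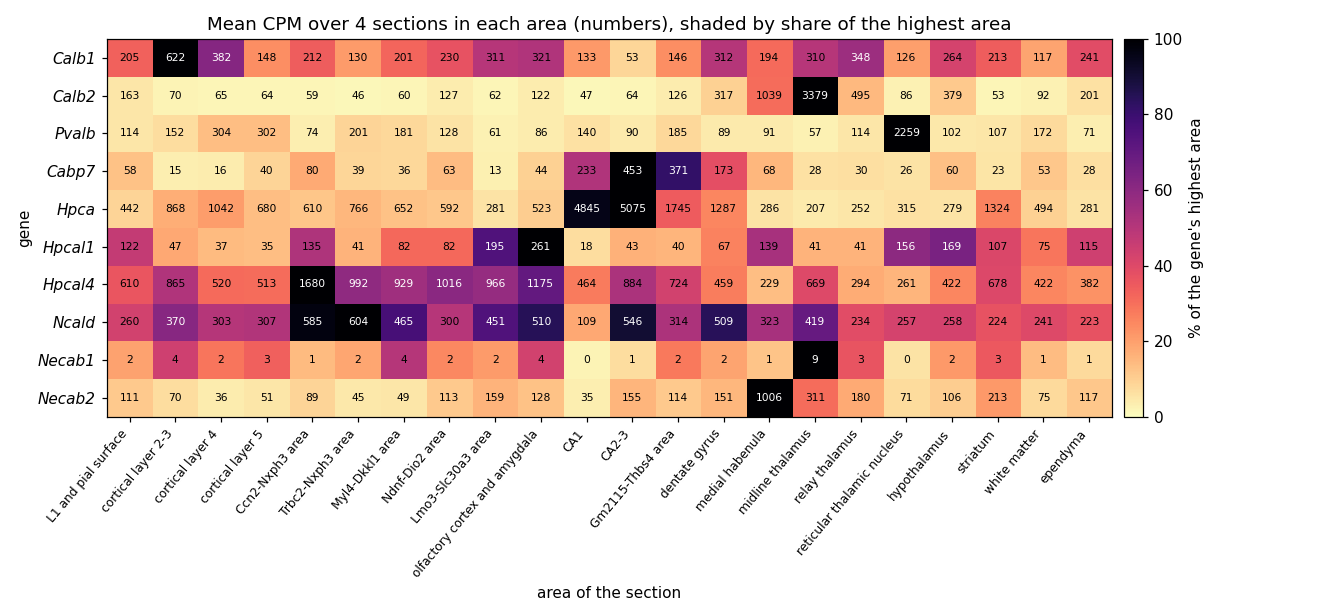
Mean CPM over 4 sections (numbers) of the 10 genes (rows) in 22 of the 23 areas (columns), shaded by the percentage of each gene's highest area. Calb2, Pvalb and Necab2 are each dark in a single area, while Ncald and Hpcal4 are shaded across much of the cortex.

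A measure that does not use the areas is Moran's I, a score of how alike neighbouring spots are, which the deposited tables give for 16731 to 18235 features a section. Calb2 scored 0.595 to 0.655 over the 4 sections and ranked 14 to 29. Hpca scored 0.516 to 0.693 and Hpcal4 0.502 to 0.626. These 3 lay above the top 1% bound of every section, the highest of which was 0.451. Cabp7, Pvalb, Calb1, Hpcal1, Necab2 and Ncald lay between 0.171 and 0.437, and Necab1, at 0.0072 to 0.0168, was near the section medians of 0.0104 to 0.0166. Cabp7 was above the section's own bound in MF replicate 2 (0.386 against 0.376), HF replicate 1 (0.370 against 0.362) and HF replicate 2 (0.422 against 0.358). In HF replicate 2, so were Pvalb (0.411) and Calb1 (0.367).

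Over the 23 area means, the feature most like Calb2 was Slc17a6, a vesicular glutamate transporter of thalamic neurons (Pearson r = 0.94), followed by Tcf7l2 and Slitrk6. Lrrc38, an auxiliary potassium channel subunit, was most like Pvalb (r = 0.92), ahead of Esrrg and Kcns3. Mast3, Msra and the calcineurin subunit Ppp3ca were most like Hpca, and Nrp1, Klk8 and Shisa6 most like Cabp7. Tex15, Syt9 and Irx2 were nearest to Necab2, Hsbp1, Snx7 and Rasal1 to Hpcal4, Cdan1, Usp13 and Il1rapl1 to Calb1, Rxrg, Vac14 and Rab3gap2 to Hpcal1, and Tbc1d24, Psap and Tagln3 to Ncald. Necab1 came closest to Cntn6, Ttyh3 and Cit, on levels of a few CPM. Among the members, Calb2 and Necab2 (r = 0.71) and Cabp7 and Hpca (r = 0.66) were the most alike, and Calb1 and Cabp7 the most opposed (r = -0.62). These are correlations across areas of the same 4 libraries and are given as descriptions.

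The effect of the maternal diet was first compared over whole sections, with UMIs summed per section and edgeR's quasi-likelihood test. None of the 10 members was called at an adjusted p under 0.05 and at least 1.2-fold, and neither was any of the 14971 features tested (0.0%). Unadjusted, 1 member and 1020 features had p under 0.05, and DESeq2 called 0 members and 23 features. Calb2, the member with the smallest p, was at 255 and 271 CPM in MF and 336 and 316 CPM in HF. Both HF sections lay above both MF sections, with a log2 fold change of 0.30 (SE 0.08; edgeR adjusted p = 0.696). With every area given the same share in each section, the values became 280, 266, 285 and 354 CPM and the log2 ratio 0.22.

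**Figure D3:**
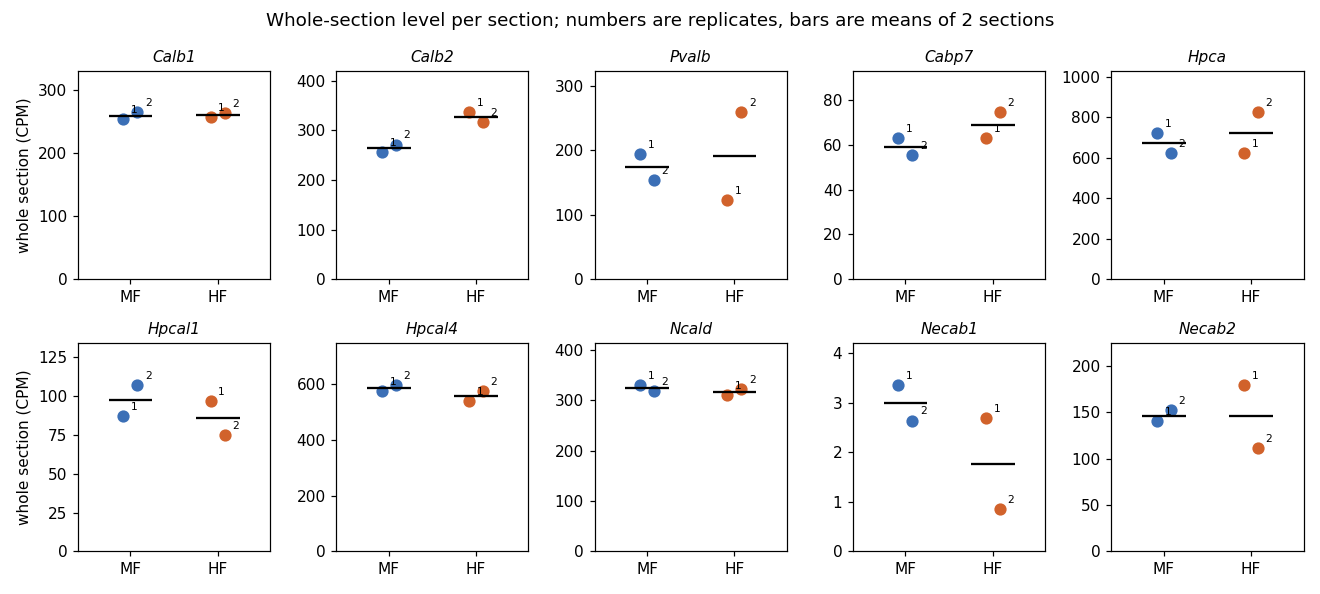
Whole-section level in CPM of each of the 10 genes in the 2 MF (blue) and 2 HF (orange) sections; numbers mark the replicate and bars the mean of 2 sections. Calb2 and Hpcal4 do not overlap between diets, and the 2 HF sections of Pvalb, Hpca and Necab2 are far apart.

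For the other 9 members the sections of a diet differed about as much as the diets. Hpcal4, at 576 and 599 CPM in MF and 541 and 576 CPM in HF, was the only other member without overlap, by a narrow gap (log2 fold change -0.08, SE 0.07). So 2 of 10 members had diets that did not overlap, against 39.6% of all features tested. Pvalb was at 195 and 154 CPM in MF and 123 and 259 CPM in HF, the lowest and the highest value being the HF sections. The spots of the reticular thalamic nucleus (51, 42, 41 and 102) ran in the same order. So did the Pvalb level with every area given the same share, at 185 and 180 CPM in MF and 155 and 218 CPM in HF. HF replicate 2 was also the highest, and HF replicate 1 the lowest, inside the Gsn-Mag cluster of the white matter (164, 153, 119 and 285 CPM) and the Tnnt1-Prkcd cluster of the relay thalamus (157, 161, 89.3 and 349 CPM). The log2 fold changes of Calb1 (-0.0022), Ncald (-0.04), Hpca (0.10), Hpcal1 (-0.19), Cabp7 (0.21), Pvalb (0.12), Necab2 (-0.02) and Necab1 (-0.82, SE 0.46, on 36 to 303 UMIs) were each less than 2 times their standard error.

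That no member was called over whole sections rests on both HF sections, and it does not show that the levels were unchanged. Without HF replicate 1, 7 members were called among 1166 of 15179 features, and without HF replicate 2, 3 members among 840 of 15130, in fits where the lone HF section was assumed to vary like the MF sections. The log2 fold change of Pvalb then had opposite signs, 0.57 with HF replicate 1 left out and -0.53 with HF replicate 2 left out, as did Necab2 (-0.38 and 0.27). Calb2 kept its direction, 0.27 and 0.33.

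By area, 209 of the 230 pairs of member and area had enough UMIs to be tested, and 1 was called, beside a background of 0.0913% of all 245357 pairs of feature and area. The pair was Calb2 in CA2-3. Its level there was 98.0 and 75.0 CPM in MF and 38.5 and 44.6 CPM in HF, from 166, 42, 21 and 41 UMIs. Both HF sections lay below both MF sections, and the log2 fold change was -1.08 (SE 0.22; edgeR adjusted p = 0.00611). In the same area 0.287% of 8703 features were called, and 0.218% were called lower in HF, while 34.0% had diets that did not overlap.

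The Calb2 level of CA2-3, a mean of 64.0 CPM, was among the low ones, and the dentate gyrus beside it stood at 367 and 298 CPM in MF and 255 and 347 CPM in HF. When the CA2-3 spots with a dentate gyrus spot among their 6 nearest positions were left out, which left 16 to 27 spots a section, Calb2 was at 63.7, 48.8, 39.4 and 38.9 CPM, and the change of -0.55 was no longer called (edgeR adjusted p = 0.785). It was also not called by DESeq2 (-1.05) or with spots thinned to 5000 UMIs (-1.25). Over all features of CA2-3, DESeq2 called 1 of 8703, thinned spots 0 of 3671 and leaving out the neighbouring spots 3 of 8172. These settings called too few features there for a lost call to tell about Calb2 itself. The size of the change is a separate matter: from -1.08 in the main fit, it became smaller only without the neighbouring spots (-0.55). There the MF levels were below those of all CA2-3 spots (98.0 and 75.0 CPM), while the HF levels stayed closer to theirs (38.5 and 44.6 CPM). The cause of this was not tested. The Calb2 call was kept with library size alone, without the filter on low counts, with either replicate block and at Leiden resolution 1. With 1 section left out, the change lay between -1.24 and -0.83, and the call was lost only without MF replicate 1 (-0.83). Markers of some other areas were lower in the same HF spots. All 10 white-matter markers tested were lower in HF and 5 were called, among them the myelin gene Mag (-0.64), with summed levels of 9845 and 8869 CPM in MF and 6249 and 6572 CPM in HF. Ttr, the transthyretin gene of the choroid plexus, was at 2034, 604, 416 and 774 CPM (log2 fold change -1.14, edgeR adjusted p = 3.41e-04), so the diets overlapped and MF replicate 1 stood apart. The blood genes Hba-a2 and Hbb-bs were called lower as well, and of 3 medial habenula markers tested, all were lower in HF and 1 was called, with sums of 231, 139, 123 and 133 CPM. The dentate gyrus markers summed to 151, 71.5, 132 and 110 CPM and the interneuron markers to 2549, 2865, 2442 and 2405 CPM, with none called, and 4 immediate early genes, Arc, Egr1, Egr4 and Nr4a3, were called higher. Their part in the Calb2 difference was not tested.

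**Figure D4:**
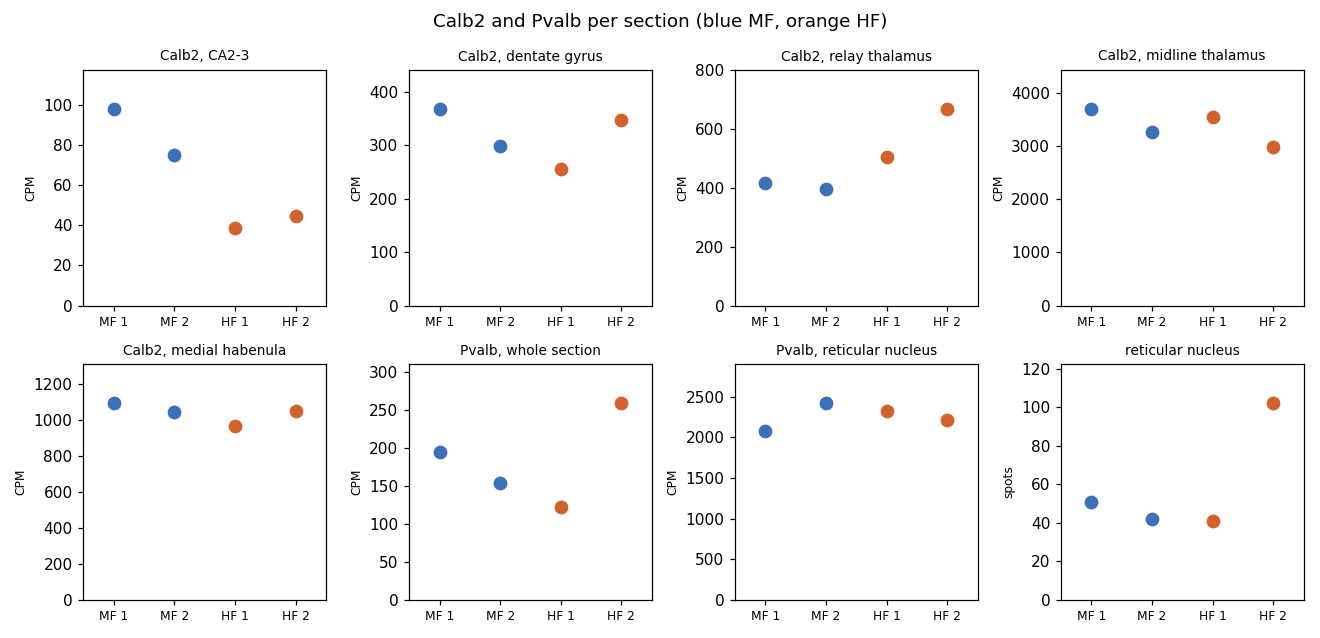
Level per section (CPM) of Calb2 in 5 areas and of Pvalb in the whole section and the reticular thalamic nucleus, with the spots of that nucleus in the last panel; blue points are MF and orange points HF sections. Calb2 is lower in HF in CA2-3 and higher in HF in the relay thalamus, and the HF sections hold the lowest and the highest whole-section level of Pvalb.

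In the relay thalamus Calb2 went the other way. It was at 417 and 394 CPM in MF and 504 and 667 CPM in HF, above MF in both sections, but the log2 fold change of 0.52 (SE 0.13) was not called (edgeR adjusted p = 0.609). It was called without the filter on low counts (edgeR adjusted p = 8.31e-05) and when HF replicate 1 (0.72) or HF replicate 2 (0.30) was left out. The 5 midline thalamus markers, from the area where Calb2 was highest, were all higher in HF, with sums of 451 and 462 CPM in MF and 542 and 624 CPM in HF and none called, and their part was not tested. The Cbln1-Gbx2 and Grid2ip-Synpo2 clusters, where Calb2 was high, together made up 44.2% and 53.5% of the relay UMIs in MF and 79.6% and 54.2% in HF. Taken singly, they divided the HF sections. The Cbln1-Gbx2 cluster held 16.93% and 13.45% in MF, 3.485% in HF replicate 1 and 36.67% in HF replicate 2. The Grid2ip-Synpo2 cluster held 27.23% and 40.02% in MF, 76.08% in HF replicate 1 and 17.51% in HF replicate 2. With each cluster given the same share in every section, the values were 498 and 425 CPM in MF and 424 and 620 CPM in HF, which overlapped (log2 ratio 0.18). Within the Cbln1-Gbx2 cluster Calb2 was at 687, 698, 736 and 1120 CPM, with HF replicate 2 standing apart. In the midline thalamus and medial habenula, the areas with the highest Calb2 levels, the diets overlapped.

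The difference of the diet effect between areas was tested in a single fit over all areas with the section as a block. None of the 10 members was called, against 9 of 13097 features (0.0687%). Unadjusted, Calb2 (edgeR adjusted p = 0.201) and Cabp7 (edgeR adjusted p = 0.908) had p under 0.05, and DESeq2 called no member. Without the filter on low counts 4 members, Calb2 among them, were called, among 331 of 18959 features. The log2 diet effect of Calb2 spanned 1.69 over the areas in the main fit and 1.93 without HF replicate 1, which leaves a lone HF section. Other members spanned about as much without HF replicate 1, among them Cabp7 (1.99) and Pvalb (1.72). The test asks whether the effect differs among all areas at once, and CA2-3 and the relay thalamus alone were not set against each other.

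**Figure D5:**
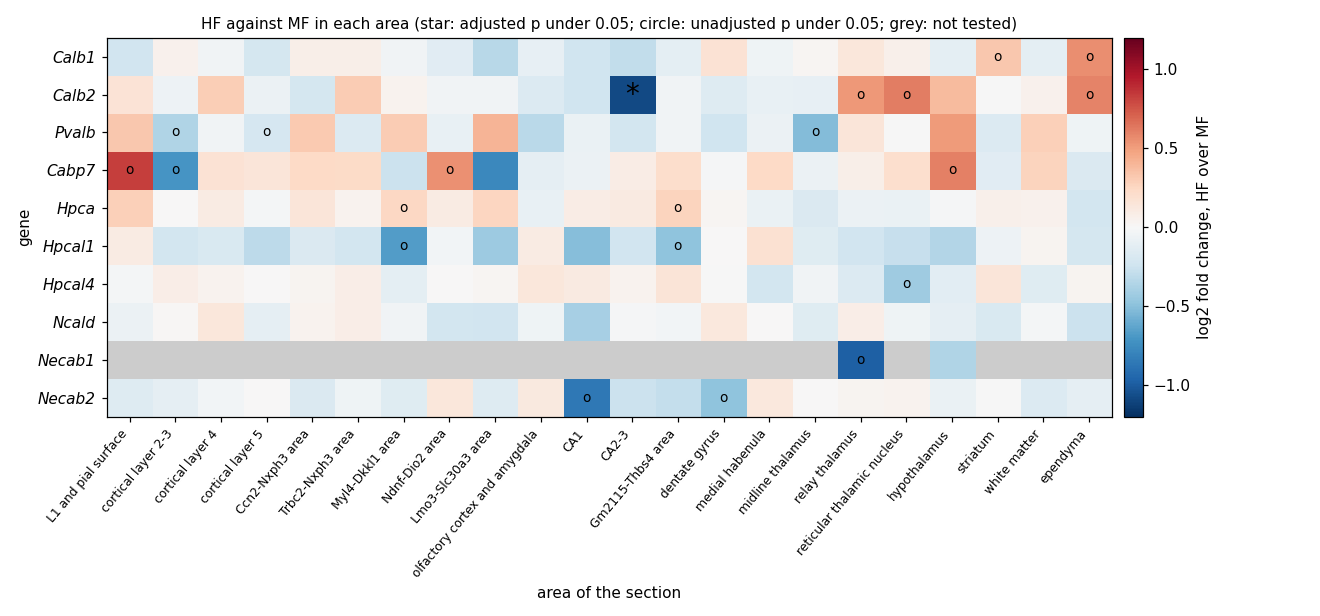
Log2 fold change of HF over MF for the 10 genes (rows) in 22 of the 23 areas (columns); red is higher and blue lower in HF, a star marks an adjusted p under 0.05, a circle an unadjusted p under 0.05, and grey a pair that was not tested. The star is Calb2 in CA2-3, and most of the tested pairs carry no mark.

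Of the tested pairs, 21 had an unadjusted p under 0.05, 10.0% against 6.05% of all pairs, and 20 of them were not called. In 9 of the 10 that were higher in HF, HF replicate 2 was the highest section, and in 8 of the 11 that were lower, HF replicate 1 was the lowest. Pairs picked for a difference between diets mostly have an HF section at the extreme, and all come from the same 4 sections. No share over all features was taken, so these counts are not read as a result about the members. For Cabp7, HF replicate 2 stood apart: in the pial surface it was at 38.4 and 47.7 CPM in MF, 44.9 CPM in HF replicate 1 and 102 CPM in HF replicate 2, and in the hypothalamus at 48.0, 46.9, 52.2 and 92.9 CPM. Hpcal1 in the Myl4-Dkkl1 area, whose leading genes include the layer 5 gene Fezf2, came nearest to a call, with 109 and 94.8 CPM in MF and 55.4 and 68.4 CPM in HF (log2 fold change -0.67, SE 0.19; edgeR adjusted p = 0.216). Necab2 in the dentate gyrus was at 203 and 148 CPM in MF and 139 and 116 CPM in HF (-0.49, SE 0.15; edgeR adjusted p = 0.440). In the same spots the markers of the medial habenula, where Necab2 was highest, summed to 419, 331, 236 and 221 CPM, with 7 of 7 tested lower in HF and 1 called, and all 10 white-matter and all 9 relay thalamus markers were lower. In the Myl4-Dkkl1 area, too, all 10 white-matter markers were lower in HF and 4 were called. Their part in these values was not tested. In its own highest area no tested member was called: the log2 fold changes were 0.05 (SE 0.09) for Calb1, -0.10 (SE 0.09) for Calb2, -0.0076 (SE 0.15) for Pvalb and 0.11 (SE 0.12) for Hpca, and those of Cabp7, Hpcal1, Hpcal4, Ncald and Necab2 lay between 0.03 and 0.12. Necab1 was not tested there.

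Other genes of calcium signalling were read from 2 lists. Of 33 other EF-hand buffers and sensors in the tables, 30 were tested over the whole section and none was called in either direction. Among the highest of them, the calmodulin genes Calm2 and Calm3 had log2 fold changes of 0.02 and 0.20, and Sdf4 of -0.03. Of 20 calcium-dependent kinases, phosphatase subunits and calmodulin-binding proteins, 19 were tested and none was called over the whole section. The highest of these were Pcp4 (-0.29, edgeR adjusted p = 0.696), Camk2b (0.09), Ppp3ca (0.06) and Nrgn (0.03).

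By area, Pcp4, a small protein that speeds the exchange of calcium on calmodulin, was the only gene of both lists to be called. In cortical layer 2-3 it was at 394 and 371 CPM in MF and 243 and 216 CPM in HF, a log2 fold change of -0.74 (SE 0.10; edgeR adjusted p = 2.92e-04), where 0.277% of features were called lower. Both HF sections were well below both MF sections. This call was kept when any 1 section was left out, with an edgeR adjusted p of at most 0.0276. Pcp4 was also called lower in CA1 (-0.74), the Ndnf-Dio2 area (-0.59) and cortical layer 4 (-0.46), where 0.0578%, 0.0305% and 0.169% of features were, but these calls were lost without MF replicate 1, without MF replicate 2 and with DESeq2. The call in CA1 was lost without any 1 section, and its value fell to -0.43 without MF replicate 1. Other markers moved in the same spots: in cortical layer 2-3 all 8 oligodendrocyte markers were called lower in HF, with sums of 7166 and 7196 CPM in MF and 4885 and 3846 CPM in HF, as was the astrocyte gene Gfap, and 8 of 21 immediate early genes were called higher. In cortical layer 4, 6 oligodendrocyte markers were called lower and 9 immediate early genes higher. Their part in the Pcp4 differences was not tested. With 2 sections a diet, an exact permutation test of a single value cannot go below p = 0.333, so these calls rest on the spread that edgeR shares over genes.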

How the data were processed

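The authors mapped probe reads to mm10 with Space Ranger 2.0.0 and deposited UMI counts per spot and gene, and a score, Moran's I, per gene. Their counts were used here as deposited. Following the study's methods, a spot was kept with at least 500 UMIs and 250 genes. Clusters came from 2000 variable genes, 30 principal components, 20 neighbours and Leiden resolution 2, without 108 genes (the members, other calcium genes, activity, blood, hypothalamic peptide and pituitary hormone genes). A cluster took the name of the area with most markers among its 50 leading genes, at least 3 (ties went to the one with more in the leading 10), unless another area had more in the leading 10, and an area needed 10 spots in every section. The choroid plexus did not have them. Values of 1 area and 2 genes are not reported here. UMIs were summed per section and area. The 2 diets were compared with edgeR 4.0.16 (R 4.3.3; quasi-likelihood test, TMM, low-count filter); called means Benjamini-Hochberg adjusted p under 0.05 and at least 1.2-fold. DESeq2 1.42.0, other scalings, filters, clusterings, thinning to 5000 UMIs and leaving out sections were alternatives. Spots are not replicates, so the study's test over spots was not used. The members and lists were chosen with earlier results of these data known. Genes named besides the members were the 3 features most like each over areas (at least 20 CPM in the highest area), list genes that were called and the 4 highest of each list, and area markers, save those named beside Calb2 in CA2-3, which were chosen after their values were seen. On simulated counts edgeR recovered 92% of 200 genes changed 2-fold over the whole section and 67.5% in CA2-3, DESeq2 88% and 20%. For 1.5-fold changes edgeR recovered 62.5% and 13%, DESeq2 47.5% and 3.5%. A 2-fold change in CA2-3 alone was recovered for 14% by the test between areas. The simulations gave all genes the same spread between sections. For the test between areas that spread was set and not estimated, without section effects shared by areas. The shares are thus a rough guide and not the power of the tests on these data. Gene models, where not RefSeq, were GENCODE's of the same build. Intervals for counts of 0 cover counting error only.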

Additional observations from a re-analysis of the deposited data

How the results depend on the processing

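No member was called over the whole section under any alternative that kept all 4 sections. Leaving out a section gave 0 to 7 called members over the whole section (0 to 1166 of all features), 0 to 24 called pairs by area, 0 to 7 members with a difference between areas (0 to 539 of all features) and 6 to 7 members with a separate highest area. By area, DESeq2, thinned spots and the clustering without clusters that hold a marker of another area (which has no CA2-3 area) gave 0 called pairs, no filter on low counts gave 5 and the replicate block 2, the second being Necab2 in the dentate gyrus. Without the filter, 4 members were called for a difference between areas, among 331 of 18959 features. Same-numbered sections deviated from their diet means with r = -0.20 over 14971 features. With 2 sections a diet this is a single contrast, and the sections also differ in depth, so it cannot tell whether the numbers pair them. The main fit used no pairing. A crossed block gave 3 called pairs (Calb2 in CA2-3 and in the relay thalamus, and Hpcal1 in the Myl4-Dkkl1 area), and the replicate block called 0 members over the whole section. Over all features of CA2-3, no filter on low counts called 31 of 14574, the replicate block 35 of 8703 and the crossed block 24 of 8703. Shares over all pairs of feature and area are not given for these fits, so their counts of pairs are not read as a result about the members. Directions turned for Calb1 over the whole section with library size alone (0.0064), with areas at fixed shares (0.013), without MF replicate 2 (0.026) and without HF replicate 1 (0.029), from -0.0022, and was -0.036 without HF replicate 2. Without MF replicate 2, Pvalb (-0.038), Hpca (-0.0067) and Necab2 (0.038) turned over the whole section, and without HF replicate 2, Pvalb (-0.53), Hpca (-0.13), Necab2 (0.27), Calb1 in the ependyma (-0.13) and Calb1 in the striatum (-0.29) did; without HF replicate 1 these were 0.57, 0.29, -0.38, 0.98 and 0.62. Necab2 in CA1 turned without MF replicate 1 (0.15) and was -1.19 without MF replicate 2. The cause was not tested. With thinned spots, each member's highest area was the same. At Leiden resolution 1, which has no midline thalamus area, 5 members had a separate highest area, and the highest area was another one for Calb2, Hpcal1, Hpcal4, Ncald and Necab1. Depth limits the small areas: CA2-3 held 21 to 34 spots a section.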
